A study of Danio rerio with 12 samples.

Results

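The transcripts of zebrafish larvae raised in 3 ppb atrazine were compared with those of larvae raised in 0.3 ppb, a step of 10-fold in dose between the lower concentrations of the study. The comparison was chosen by the dose in the labels alone and used 6 of the 12 pools measured, 3 per dose. Each pool held 50 whole wild-type larvae of the AB strain at 72 hours after fertilization (hpf), exposed from about 1 hpf. The other pools, 3 at 0 ppb and 3 at 30 ppb, did not enter the test, and their levels are given beside some genes as a description. The labels name each pool a biological replicate but give no clutch, so the p-values cover the spread among the 6 pools and nothing beyond it. In RNA of whole larvae, fewer cells of a type and less RNA per cell cannot be told apart.

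Atrazine is a triazine herbicide that blocks electron transport in photosystem II of plants, and it reaches surface water by run-off from treated fields. In vertebrates it is studied as an endocrine disruptor of the hypothalamic, pituitary and gonadal axis, in which neuropeptides of the hypothalamus set the release of pituitary hormones such as luteinizing hormone. In rats it suppresses the surge of that hormone. The study looked at embryonic exposure with the hormone and nervous systems, reproduction, cell division and cancer in view, and gene groups for each are described below with markers of larval tissues.

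No gene passed the test between the doses. The largest differences among named genes were higher levels at 3 ppb of the ammonia transporter gene rhcga, the pancreatic trypsin gene prss59.1 and the luteinizing hormone subunit gene lhb, each a little over 2-fold, and lower levels of the planar polarity cadherin gene celsr2 and the DNA methyltransferase gene dnmt3aa. Of the genes grouped as lists, 6 of 7 hormone genes and 7 of 7 dopamine and serotonin genes were higher at 3 ppb. Of 34 protocadherin and cadherin genes, 31 were lower. Among all genes with a usable symbol 49.1% were higher and 50.9% lower. None of these list genes passed the test, and the lists were written with earlier results of these data known. Values are log2 intensities of single-colour arrays, averaged over the features of a gene. Differences are 3 ppb minus 0.3 ppb on the log2 scale, with a standard error (SE) from limma.

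Among 37144 units, which are genes with a symbol or targets without one, 0 (0.0%) passed an adjusted p of 0.05 in limma with Benjamini-Hochberg adjustment, and the smallest adjusted p was 0.99998. An unadjusted p under 0.05 was reached by 1277 units (3.44%), with 655 higher (1.76%) and 622 lower (1.67%) at 3 ppb. The pools of the doses did not overlap for 2769 units (7.45%), 1332 of them higher (3.59%) and 1437 lower (3.87%). Of 2458 genes with a usable symbol, 67 (2.73%) had an unadjusted p under 0.05, with 28 higher (1.14%) and 39 lower (1.59%), and 222 (9.03%) had no overlap. The median SE of a difference was 0.183, larger than the median absolute difference of 0.112. With 3 pools against 3, an exact two-sided permutation test of 1 gene cannot give a p below 0.1.

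The arrays had median intensities of 529.2 to 530.41. The first principal component of the 6 arrays held 54.2% of their variance, of which 1.68% lay between the doses. Replicate 1 of each dose stood at its negative end, at -51.2 for 3 ppb and -36.4 for 0.3 ppb. Replicate 3 at 0.3 ppb was also negative, at -17.7, and the other pools were positive. The slope of log2 signal along probe position was negative in the same pools and positive in the others. Among the negative pools this slope was smallest in size in replicate 1 at 0.3 ppb. Whether this gradient underlies the component was not tested. The third component held 15.4% of the variance, and 81.1% of that lay between the doses. Replicate 1 at 3 ppb correlated more closely with replicate 1 at 0.3 ppb (Pearson r = 0.986 over all units, which are not independent) than with any other of the 6 pools. For several genes below, the value without a pool is given where leaving it out moved the difference by over 1.5 times. The brightest members of the striated muscle, lens and globin lists had high signals at both doses. Above the median signal of all units lay 20 of 27 muscle, 18 of 23 lens and 2 of 7 globin genes. In the other tissue lists this ran from 1 of 5, as for intestine, to 10 of 10 for synapse. The skeletal actin gene acta1b gave 15.1 at 3 ppb and 15.1 at 0.3 ppb, the lens crystallin gene crybb1 gave 15.1 and 15.1, and the embryonic globin gene hbae3 gave 14.9 and 14.9.

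Of the 37144 units, 61 were at least 2-fold higher and 7 at least 2-fold lower at 3 ppb. Among the higher units 3 were named genes (lhb, prss59.1 and rhcga), and none of the lower units was a named gene. The pools did not overlap for 48 of the 61 and for 5 of the 7, against 7.45% of all units. Both sets were picked by the size of the difference in these same pools, which favours pools that are apart, so these counts are a description. The median level of the 61 units was 7.02 at 0 ppb, 6.92 at 0.3 ppb, 8.20 at 3 ppb and 8.25 at 30 ppb. At 30 ppb, pools that did not enter the test, these units thus had a level close to that at 3 ppb. Of the 61, 51 lay below the median signal of all units and 20 rested on fewer than 6 features. The largest differences among targets with no gene name here were 1.68 (SE 0.30) for ENSDART00000105335 and 1.66 (SE 0.37) for ENSDART00000103170. On the lower side they were -1.14 (SE 0.28) for ENSDART00000058590 and -1.14 (SE 0.31) for TC263188.

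Separate pools together with an unadjusted p under 0.05 were found for 26 named genes higher at 3 ppb (1.06%) and for 35 lower ones (1.42%). The 10 of largest difference in each direction come first. All of them had an adjusted p of 1, so none is shown to have changed. They were picked by the size of the difference in these pools, and the values are a description.

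The largest difference among named genes was that of rhcga, a member of the Rh glycoprotein family of ammonia transporters. Its levels at 3 ppb were 9.04, 10.07 and 8.83 in replicates 1 to 3, and at 0.3 ppb they were 8.46, 7.88 and 8.07. The lowest pool at 3 ppb thus stood above the highest at 0.3 ppb, with replicate 2 at 3 ppb well above the other pools. The difference was 1.18 (SE 0.32, unadjusted p = 0.00565), or 2.26-fold, and all 12 features were higher at 3 ppb. At 0 ppb the level was 8.65 ± 0.49 (SD, n = 3), between those of the 2 doses compared.

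The trypsin gene prss59.1, expressed in the exocrine pancreas, stood at 11.18, 11.41 and 11.15 at 3 ppb and at 10.93, 9.44 and 9.97 at 0.3 ppb. The 3 ppb pools lay close together, and the 0.3 ppb pools were spread over more than 1 log2 unit, with replicate 1 near the 3 ppb pools. The difference was 1.13 (SE 0.33, unadjusted p = 0.00896). Its level was 10.92 ± 0.57 at 0 ppb and 11.10 ± 1.21 at 30 ppb, so the spread among the 30 ppb pools was as large as the difference. Both other measured enzymes of the exocrine pancreas overlapped between the doses. The chymotrypsinogen gene ctrb.3 differed by 0.44 (SE 0.28), and the amylase gene amy2al2 differed by 0.08 (SE 0.17). That of ctrb.3 was 0.17 without replicate 2 at 0.3 ppb.

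The gene lhb encodes the beta subunit of luteinizing hormone, the pituitary gonadotropin that drives ovulation and sex steroid synthesis in adults. Its levels at 3 ppb were 8.17, 6.92 and 7.06, and at 0.3 ppb they were 6.39, 6.26 and 6.17. The pools did not overlap, and replicate 1 at 3 ppb stood more than 1 log2 unit above the other pools of its dose. The difference was 1.11 (SE 0.31, unadjusted p = 0.00626), or 2.17-fold, and without that replicate it was 0.72. Of 11 features, 9 were higher at 3 ppb. In the pools outside the test the level was 5.94 ± 0.05 at 0 ppb and 7.36 ± 0.25 at 30 ppb (SD, n = 3 each), so the order of the means was 0, 0.3, 30 and 3 ppb. The means at 30 and 3 ppb were closer together than the spread of the 3 ppb pools.

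The neuropeptide gene npffl, a precursor of the neuropeptide FF family of RFamide peptides, was also apart between the doses. Its levels at 3 ppb were 10.35, 9.85 and 10.17, and at 0.3 ppb they were 9.54, 9.47 and 9.40. The difference was 0.65 (SE 0.17, unadjusted p = 0.00423), and 10 of its 12 features were higher. The level was 9.34 ± 0.14 at 0 ppb and 10.06 ± 0.24 at 30 ppb, so the 0 and 0.3 ppb means lay near each other and the 3 and 30 ppb means did too.

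Replicate 1 was the highest pool at 3 ppb for 7 of these 10 genes. This held for bco1l, a carotenoid-cleaving oxygenase gene of the pathway to retinal. Its levels were 7.19, 6.39 and 6.85 at 3 ppb and 6.15, 5.99 and 6.16 at 0.3 ppb, a difference of 0.71 (SE 0.21). It also held for il12a, which encodes a subunit of the cytokine interleukin-12. The levels of il12a were 8.32, 7.43 and 7.64 at 3 ppb and 7.14, 7.15 and 7.08 at 0.3 ppb. Its difference of 0.67 (SE 0.23) was 0.41 without replicate 1 at 3 ppb. The interferon regulatory factor gene irf10 had a difference of 0.52 (SE 0.21), which was 0.32 without the same pool.

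The remaining genes of this set were smaller in difference. The gene tmigd1, which encodes an immunoglobulin-domain adhesion protein of epithelial cells in mammals, differed by 0.62 (SE 0.17). Its pools were at 7.24, 6.78 and 6.80 at 3 ppb and 6.29, 6.45 and 6.24 at 0.3 ppb. The serpin gene serpinb1l4, of a family of protease inhibitors, differed by 0.61 (SE 0.19). The gene of the LIM-domain protein fhl5 differed by 0.53 (SE 0.16), and its level at 0 ppb, 8.95 ± 0.23, was nearer that at 3 ppb (9.05 ± 0.15) than that at 0.3 ppb (8.52 ± 0.17).

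Of the 10 genes lower at 3 ppb, celsr2 had the largest difference. It encodes an atypical cadherin that acts in planar cell polarity. Its levels were 9.17, 8.61 and 8.93 at 3 ppb and 9.19, 10.02 and 9.93 at 0.3 ppb. The pools of the doses met closely at replicate 1, where they were 0.02 apart, and were well apart for the others. The difference was -0.81 (SE 0.25, unadjusted p = 0.0113), and all 12 features were lower. At 0 ppb the level was 9.18 ± 0.76, a spread about as large as the difference.

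The next was dnmt3aa, a de novo DNA methyltransferase gene. It stood at 9.77, 9.44 and 9.31 at 3 ppb and at 9.87, 10.38 and 10.45 at 0.3 ppb, a difference of -0.73 (SE 0.21, unadjusted p = 0.00733). Again the replicates numbered 1 were the nearest pools of the doses. The laminin gene lama1, of the alpha-1 chain of basement membranes, stood at 8.58, 8.19 and 8.31 at 3 ppb and at 8.79, 9.21 and 9.18 at 0.3 ppb. It differed by -0.70 (SE 0.18, unadjusted p = 0.00407), and 11 of 12 features were lower. The guidance ligand gene slit1a, whose product binds Robo receptors on growing axons, stood at 8.97, 8.48 and 8.64 at 3 ppb and at 9.24, 9.09 and 9.46 at 0.3 ppb. It differed by -0.57 (SE 0.18), with all 12 features lower.

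The phosphoinositide phosphatase gene sacm1lb had the smallest SE of the 20 genes. Its levels were 9.96, 10.10 and 10.09 at 3 ppb and 10.70, 10.56 and 10.54 at 0.3 ppb. Both doses were tight and clearly separate, with a difference of -0.55 (SE 0.14, unadjusted p = 0.00385) and all 12 features lower. Its level was 10.40 ± 0.09 at 0 ppb and 10.19 ± 0.09 at 30 ppb, so the 3 ppb mean was the lowest and the 0.3 ppb mean the highest of the 4.

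Of the others, the dynamin gene dnm2b, of a GTPase that pinches endocytic vesicles off the membrane, differed by -0.54 (SE 0.19). The presynaptic adhesion gene nrxn2b differed by -0.54 (SE 0.15). The beta-catenin co-factor gene bcl9 differed by -0.53 (SE 0.18), and ankrd52a, of an ankyrin-repeat subunit of a protein phosphatase, by -0.52 (SE 0.20). For 9 of the 10 lower genes, replicate 1 was the highest pool at 3 ppb and so the nearest to the 0.3 ppb pools. The 0 ppb mean lay between the means of the 2 doses for all 10 lower genes and for 6 of the 10 higher ones, against 39.9% of all genes with a usable symbol. These genes were picked for a wide gap between the doses, and another mean falls more readily inside a wide gap. The median absolute difference was only 0.101 over all genes with a usable symbol, so that contrast follows at least in part from the choice. The 30 ppb mean was nearer to the 3 ppb mean than to the 0.3 ppb mean for 9 of the 10 higher and 7 of the 10 lower genes, against 60.0% of all such genes.

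**Figure D1:**
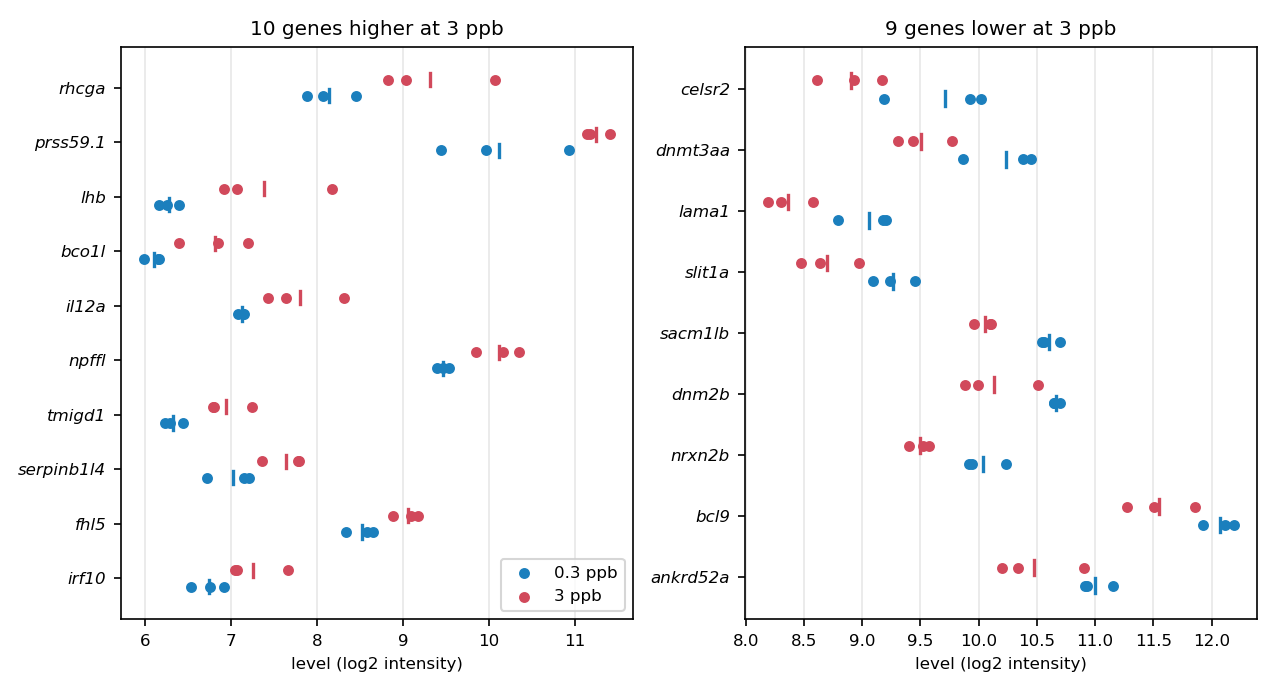
Levels (log2 intensity, horizontal axis) of 10 genes higher (left) and 9 genes lower (right) at 3 ppb, those of largest difference, are plotted for each pool, with 0.3 ppb in blue, 3 ppb in red and vertical bars for the means of 3 pools. The pools of the doses do not overlap for any of the 19, as the choice of the genes required, and celsr2 has pools 0.02 apart.

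The 26 higher and the 35 lower genes differed in signal and in how many of their features pointed the same way. The median signal was 7.49 for the higher genes and 9.84 for the lower ones, against 9.51 for all genes with a usable symbol. Intensity also depends on the sequence of each probe, so these medians do not rank transcript amounts. All features pointed the same way for 3 of the 26 higher and 17 of the 35 lower genes. Among all genes with a usable symbol, 79 of 2458 had all features in 1 direction. Both sets were chosen by the mean of these same features, which favours features that agree, so the contrast with all genes is a description.

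The hypothalamic and pituitary hormone list held 7 measured genes, of which 6 were higher at 3 ppb, against 49.1% of all genes with a usable symbol, and 3 were higher without overlap, against 3.66%. The median difference of the list was 0.23, against -0.003 over those genes. The list was written with earlier results of these data known, so these shares are a description. The median level of the list was 6.66, 6.62 and 6.38 in the 0.3 ppb pools and 7.11, 6.92 and 7.07 in the 3 ppb pools, without overlap. It was 6.39, 6.30 and 6.52 in the 0 ppb pools and 7.07, 7.39 and 7.08 in the 30 ppb pools. Such separation of pool medians was seen for 4 of the 36 lists. Besides the hormones these were the cytokine, cell cycle and cancer-associated lists, whose median differences were 0.05, -0.02 and -0.19. A median of levels rests on the genes of middle level. With each gene centred on its mean over the 6 pools, the hormone medians were again apart, and those of these other lists overlapped. Centred medians were also apart for the dopamine and serotonin, protocadherin and cadherin, ubiquitin, intestine, and blood and vessel lists. Which lists separate thus depends on the measure.

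After lhb, the members of largest difference were avp and smtla. The gene avp encodes the precursor of vasotocin, the fish form of vasopressin. Its levels were 9.52, 9.16 and 9.42 at 3 ppb and 8.82, 8.95 and 8.96 at 0.3 ppb, a difference of 0.46 (SE 0.15, unadjusted p = 0.0169). The gene smtla encodes a somatolactin, a fish pituitary hormone related to growth hormone and prolactin. Its levels were 6.87, 7.07 and 7.20 at 3 ppb and 6.69, 6.76 and 6.32 at 0.3 ppb, a difference of 0.45 (SE 0.17). That of smtla was 0.20 when the median of the features replaced their mean. The other 4 members overlapped between the doses. The second somatolactin gene smtlb differed by 0.23 (SE 0.21), the orexin precursor gene hcrt by 0.09 (SE 0.18), the thyrotropin-releasing hormone gene trh by 0.08 (SE 0.31), and the growth hormone-releasing hormone gene ghrh by -0.19 (SE 0.22). Without replicate 1 at 3 ppb, smtlb differed by 0.06, and without replicate 1 at 0.3 ppb, ghrh differed by 0.03.

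**Figure D2:**
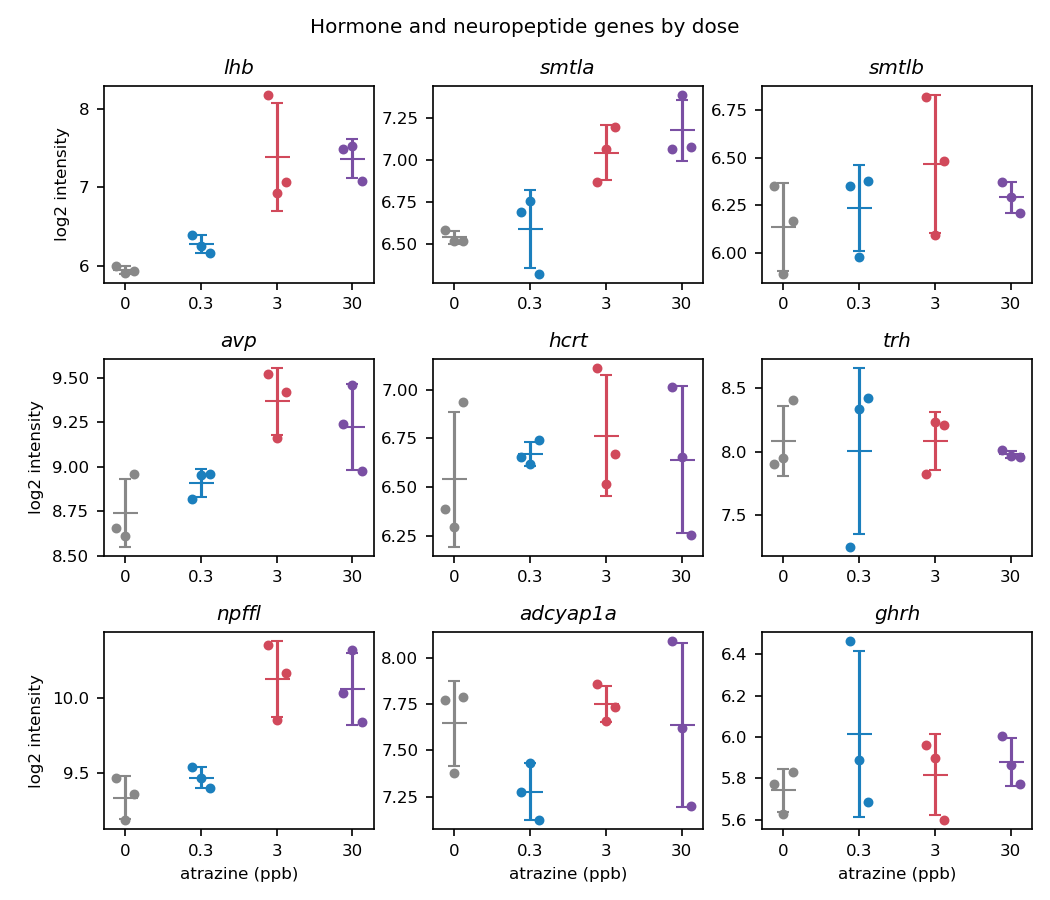
Levels (log2 intensity, vertical axes) of 9 hormone and neuropeptide genes are plotted by atrazine dose (ppb, horizontal axes, evenly spaced), with a point per pool in the order of the replicate numbers and bars for the mean and SD of 3 pools. The 3 and 30 ppb pools of lhb and npffl stand above all pools at 0 and 0.3 ppb, while trh and ghrh show overlapping pools at every dose.

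Among other neuropeptides and peptide hormone receptors, 7 of 10 measured genes were higher at 3 ppb, with a median of 0.11. Besides npffl, adcyap1a and npbwr2b were higher without overlap and lhcgr was lower without overlap. Among all genes with a usable symbol 49.1% were higher, 3.66% were higher without overlap and 5.37% were lower without overlap. Pool medians of the list overlapped, at 7.44 to 7.79 for 0.3 ppb and 7.65 to 7.88 for 3 ppb. The gene adcyap1a encodes the neuropeptide PACAP, a hypothalamic activator of pituitary cells, and stood at 7.86, 7.66 and 7.74 at 3 ppb and at 7.27, 7.43 and 7.12 at 0.3 ppb. It differed by 0.47 (SE 0.15, unadjusted p = 0.0125), but its level at 0 ppb, 7.65 ± 0.23, was that of the 3 ppb pools. Its receptor gene adcyap1r1a differed in the other direction, by -0.41 (SE 0.21), and overlapped. The gene lhcgr, of the gonadal receptor for luteinizing hormone, had low signals of 5.71, 5.77 and 5.76 at 3 ppb and of 6.10, 5.89 and 6.39 at 0.3 ppb. Its difference was -0.38 (SE 0.17), and -0.24 without replicate 3 at 0.3 ppb.

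The receptor genes of this list had small or uneven differences. The neuropeptide B and W receptor gene npbwr2b differed by 0.28 (SE 0.16). The prolactin-releasing peptide receptor gene prlhr2a differed by 0.32 (SE 0.19), and the neuropeptide FF receptor gene npffr1l3 by 0.19 (SE 0.17). Both of the latter overlapped between the doses, and without replicate 1 at 3 ppb they differed by 0.15 and 0.05. That of npbwr2b was 0.16 without replicate 3 at 3 ppb. The vasoactive intestinal peptide receptor gene vipr1b differed by 0.03 (SE 0.19) and the orexin receptor gene hcrtr2 by 0.01 (SE 0.17). The neuropeptide Y receptor gene npy7r, measured by 3 features, differed by -0.36 (SE 0.48), with replicate 3 at 0.3 ppb at 8.14 and the other 5 pools between 6.04 and 6.78. Without that replicate its difference was 0.27, in the other direction.

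All 7 measured genes of dopamine and serotonin signalling were higher at 3 ppb, against 49.1% of all genes with a usable symbol. Their median difference was 0.20, and 1 of them, fev, was higher without overlap, against 3.66% of all genes with a usable symbol. Pool medians of the list overlapped, at 8.026, 8.152 and 8.343 for 0.3 ppb and 8.342, 8.239 and 8.365 for 3 ppb. They ran from 8.126 to 8.496 at 0 ppb and from 8.132 to 8.269 at 30 ppb. The gene fev encodes a transcription factor that specifies serotonergic neurons. Its levels were 8.68, 8.46 and 8.37 at 3 ppb and 8.03, 8.15 and 8.14 at 0.3 ppb, a difference of 0.40 (SE 0.15, unadjusted p = 0.0272). At 0 ppb its level was 8.48 ± 0.28, as at 3 ppb. The dopamine receptor gene drd2b had the largest difference of the list, 0.51 (SE 0.22), with pools of 9.41, 8.71 and 9.05 at 3 ppb and 8.82, 8.31 and 8.49 at 0.3 ppb. The lowest pool at 3 ppb lay below the highest at 0.3 ppb, and without replicate 1 at 3 ppb the difference was 0.34.

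The related dopamine receptor genes drd2a and drd3 differed by 0.21 (SE 0.22) and 0.20 (SE 0.16). Those of drd2l, drd4a and the serotonin receptor gene htr5ab were between 0.03 and 0.15. Without replicate 1 at 3 ppb, drd2a differed by 0.11, drd3 by 0.11 and drd2l by 0.002, and without replicate 1 at 0.3 ppb drd2a differed by 0.02. In acetylcholine signalling 4 of 5 measured genes were higher, against 49.1% of all genes with a usable symbol, with a median of 0.17, and none was without overlap. The neuronal nicotinic receptor genes chrna4b and chrna6 differed by 0.34 (SE 0.22) and 0.17 (SE 0.14), the muscle receptor subunit gene chrnd by 0.18 (SE 0.16), the muscarinic receptor gene chrm5a by 0.11 (SE 0.17), and the vesicular acetylcholine transporter gene slc18a3b by -0.16 (SE 0.28). That of chrna4b was 0.16 without replicate 1 at 0.3 ppb, and that of chrm5a was 0.03 without replicate 1 at 3 ppb.

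Genes of steroid synthesis, nuclear hormone receptors and reproduction were more often lower than higher at 3 ppb. Of 22 measured, 7 were higher and 15 lower (68.2%, against 50.9% lower among all genes with a usable symbol), with a median of -0.07. Without overlap 2 were lower (9.09%, against 5.37%). No member had an unadjusted p under 0.05, against 2.73% of all genes with a usable symbol. The largest difference was that of the retinoic acid receptor gene rargb, at -0.46 (SE 0.21), with pools of 7.50, 7.21 and 7.40 at 3 ppb and 7.77, 7.48 and 8.23 at 0.3 ppb. The pools of rargb overlapped, and without replicate 3 at 0.3 ppb the difference was -0.26. Without overlap, the retinoid receptor gene rxrga was lower by a small step, with a difference of -0.22 (SE 0.14), and hsd17b7, a reductase gene of sterol and estradiol synthesis, differed by -0.14 (SE 0.14). The estradiol-forming dehydrogenase gene hsd17b1 differed by -0.31 (SE 0.24), and by -0.04 without replicate 1 at 0.3 ppb. The egg-yolk precursor gene vtg4, a marker of estrogen exposure in fish, had signals of 6.08 to 6.25 at 3 ppb and 6.18 to 6.34 at 0.3 ppb, a difference of -0.07 (SE 0.14). The zona pellucida gene zp2.2, of the egg coat, differed by 0.26 (SE 0.22), and by 0.05 without replicate 1 at 3 ppb. Pattern matching had placed thrap3b and rarres3 in this list, though their names do not show a role in reproduction.

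The cell cycle, DNA replication and repair list held 26 measured genes, 10 higher and 16 lower, with a median of -0.02. Its members of largest difference were the p53 kinase gene tp53rk at -0.30 (SE 0.15), the double-strand break repair gene xrcc5 at -0.27 (SE 0.17) and the recombination gene rad51b at 0.24 (SE 0.17), which was 0.11 without replicate 1 at 3 ppb. Of the 3 measured cancer-associated genes, the receptor tyrosine kinase gene met differed by -0.23 (SE 0.16) and the tumour suppressor gene vhl by -0.19 (SE 0.16). The telomerase gene tert differed by 0.04 (SE 0.18). All 3 cancer-associated genes overlapped between the doses.

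The protocadherin and cadherin list stood on the other side from the hormones. Protocadherins are adhesion molecules of neurons, and the clustered ones give a neuron its own surface identity through combinations of isoforms. Of 34 measured members 31 were lower at 3 ppb, against 50.9% of all genes with a usable symbol, and 8 were lower without overlap, against 5.37%. The median difference was -0.27. This list too was written with earlier results of these data known, so the shares are a description. Leaving out each pool in turn gave a median between -0.33 and -0.17 and between 26 and 34 lower members, and the smallest of these came without replicate 3 at 0.3 ppb.

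After celsr2 the largest differences belonged to genes named pcdh2. The gene pcdh2ab10 stood at 7.98, 8.24 and 8.22 at 3 ppb and at 8.51, 8.69 and 8.78 at 0.3 ppb, a difference of -0.52 (SE 0.15, unadjusted p = 0.00894) with all 12 features lower. Its level at 0 ppb, 8.73 ± 0.13, was that of the 0.3 ppb pools, and at 30 ppb it was 8.55 ± 0.51. A pair of neighbours, chosen after their values were seen, show how the pools lay. The gene pcdh2ab5 stood at 8.51, 8.53 and 8.74 at 3 ppb and at 8.88, 8.89 and 9.57 at 0.3 ppb, and pcdh2ab9 at 8.19, 8.15 and 8.11 against 8.40, 8.38 and 8.77. In both, replicate 3 at 0.3 ppb was the highest pool, and without it they differed by -0.29 and -0.24.

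All 24 measured pcdh2 genes were lower at 3 ppb, with a median difference of -0.28 and 7 without overlap. This subset was picked after the values were seen. Among all genes with a usable symbol 50.9% were lower and 5.37% were lower without overlap. The 4 measured pcdh1 genes had differences of -0.03 to 0.11 and all overlapped. The pool medians of the pcdh2 genes were 8.05, 8.08 and 8.54 at 0.3 ppb and ran from 7.79 to 8.14 at 3 ppb, so they overlapped, and replicate 3 at 0.3 ppb stood above the others. At 0 ppb they were 8.08, 8.06 and 8.31, and at 30 ppb they ranged from 7.51 to 8.48. In the gene table used for names, the 24 genes lie on 1 chromosome, in a stretch of 27 protein-coding genes that holds only protocadherin genes and genes with no name of their own. Variable exons of clustered protocadherins are close copies and share their constant exons, so features of 1 gene may bind transcripts of its neighbours, and the 24 values are uncertain as separate measurements. Their part in the shared direction was not tested.

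**Figure D3:**
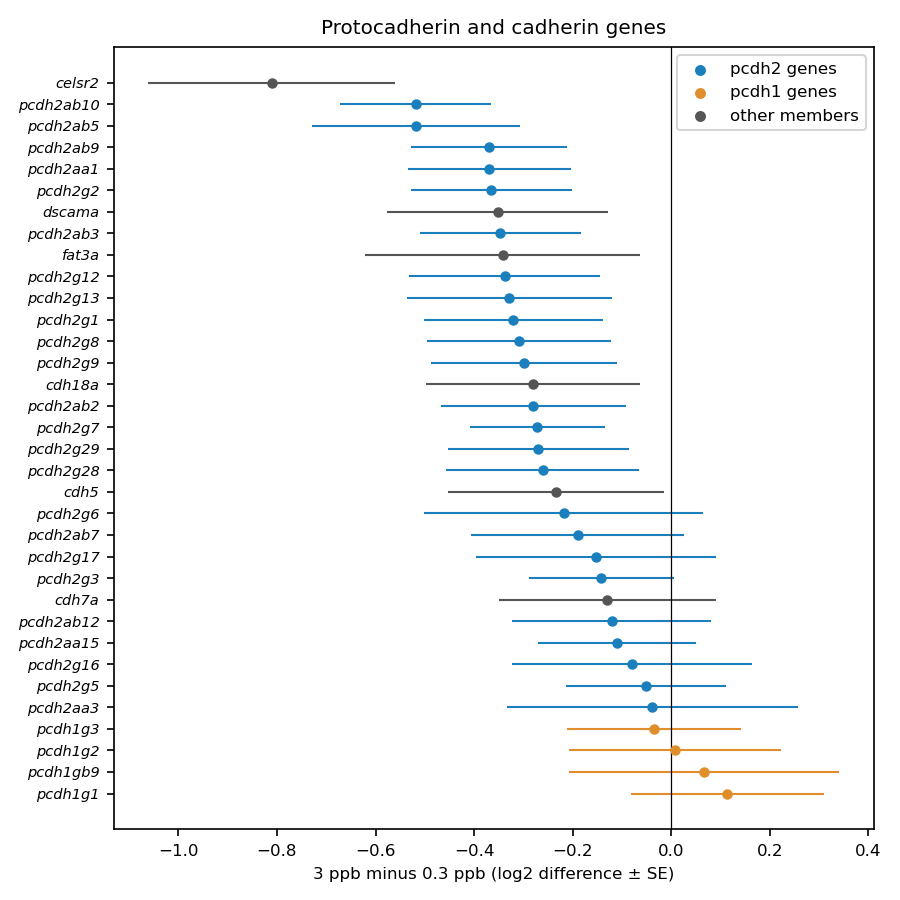
Differences (3 ppb minus 0.3 ppb, log2, horizontal axis) with their SE are plotted for the 34 members of the protocadherin and cadherin list, with pcdh2 genes in blue, pcdh1 genes in orange and other members in grey. All 24 pcdh2 genes lie left of 0 and the pcdh1 genes lie near 0.

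Of 51 measured genes of developmental signalling and axon guidance, 21 were higher and 30 lower (58.8%, against 50.9% lower among all genes with a usable symbol), with a median of -0.03. Without overlap 4 were lower (7.84%, against 5.37%). These 4 were slit1a and, named here after their values were seen, the hedgehog effector gene gli2b, tgfbrap1 and the semaphorin gene sema6d, with differences of -0.42, -0.40 and -0.32. The levels of gli2b were 9.96, 9.52 and 9.70 at 3 ppb and 10.15, 10.15 and 10.15 at 0.3 ppb, so the 0.3 ppb pools were almost equal. The netrin receptor gene dcc, of axon guidance, differed by -0.50 (SE 0.24) and overlapped, with pools of 10.34, 9.58 and 9.81 at 3 ppb and 10.39, 10.12 and 10.73 at 0.3 ppb. Without replicate 2 at 3 ppb dcc differed by -0.33. Homeobox and other developmental transcription factor genes were lower in 37 of 55 cases (67.3%, against 50.9%), with a median of -0.04. Without overlap 2 of them were lower (3.64%, below the 5.37% of all genes with a usable symbol). The median of this list lay between -0.09 and 0.01 when a pool was left out.

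Synaptic genes did not share a direction. Of 10 measured, 4 were higher and 6 lower, with a median of -0.01. Apart from nrxn2b, the largest differences were those of the synaptic vesicle genes sv2ba, at 0.25 (SE 0.21), and syt5b, at 0.18 (SE 0.19), which were 0.14 and 0.11 without replicate 2 at 3 ppb. Among 40 ion channel and ionotropic receptor genes, 23 were higher and the median was 0.02. The potassium channel gene kcnk1a was higher without overlap, at 8.16, 7.99 and 8.13 at 3 ppb and 7.77, 7.53 and 7.69 at 0.3 ppb, a difference of 0.43 (SE 0.14, unadjusted p = 0.0173). The calcium channel gene trpv6, of epithelial calcium uptake, differed by 0.33 (SE 0.18), also without overlap, and by 0.20 without replicate 3 at 3 ppb. The glutamate receptor gene gria1a differed by -0.42 (SE 0.21) and overlapped.

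Odorant and other chemosensory receptor genes were higher at 3 ppb in 19 of 23 cases, against 49.1% of all genes with a usable symbol, with a median difference of 0.14. Their signals were low, with a list median of 6.04, 5.72 and 5.69 in the 0.3 ppb pools and 6.31, 5.79 and 5.88 in the 3 ppb pools. In each dose the highest value was that of replicate 1, and the doses overlapped. The largest differences were those of the olfactory receptor gene ora2, at 0.35 (SE 0.17), and the bitter taste receptor gene tas2r203, at 0.24 (SE 0.17), which was 0.12 without replicate 1 at 0.3 ppb. The files give no background call, so it was not settled which of these genes were above background.

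The marker lists of larval tissues were set beside these results. None of 11 such lists had pool medians of levels without overlap between the doses. With each gene centred on its mean over the pools compared, medians of the intestine and the blood and vessel lists were apart. Those of intestine were 0.25, 0.13 and 0.06 at 3 ppb and -0.0002, -0.18 and -0.35 at 0.3 ppb. Those of blood and vessels were -0.01, -0.10 and 0.01 at 3 ppb and 0.18, 0.05 and 0.06 at 0.3 ppb. Centred medians of the other marker lists overlapped. Among all genes with a usable symbol 49.1% were higher and 50.9% lower. Without overlap 3.66% were higher and 5.37% lower. Of 27 striated muscle genes 21 were higher at 3 ppb, with a median of 0.06. The myosin-binding protein gene mybpc1 was higher without overlap, at 10.37, 10.46 and 10.22 at 3 ppb and 10.14, 9.79 and 9.91 at 0.3 ppb, a difference of 0.41 (SE 0.16). Its level at 0 ppb, 10.42 ± 0.03, was close to that at 3 ppb. The muscle co-factor gene vgll2a was lower without overlap, at -0.37 (SE 0.15). Of 23 lens genes 17 were higher, with a median of 0.07. The largest was the crystallin gene crygmx, at 0.29 (SE 0.16).

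Photoreceptor genes were higher in 6 of 7 cases, against 49.1% of all genes with a usable symbol, with a median of 0.19 and none without overlap. The guanylate cyclase activator gene guca1g differed by 0.39 (SE 0.25), and by 0.14 without replicate 2 at 3 ppb. Globin genes were higher in 3 of 7 cases. The globin gene ba1l had the largest globin difference upward, at 0.43 (SE 0.17), and the embryonic globin gene hbbe3 the largest downward, at -0.41 (SE 0.29). With the median of features ba1l differed by 0.13, and hbbe3 differed by -0.09 without replicate 2 and by -0.63 without replicate 1 at 0.3 ppb. All 5 intestine markers were higher, against the same 49.1%, with a median of 0.12. Without overlap were tmigd1, already picked above by the size of its difference, and the claudin gene cldn15lb, against 3.66% of all genes with a usable symbol. The difference of cldn15lb was 0.24 (SE 0.14). All 4 members of the liver list were higher by 0.04 to 0.23 and overlapped. They include apobec2a, whose name does not show a role in the liver. Of 5 cartilage and bone markers 1 was higher, with a median of -0.03, and of 5 blood and vessel markers 1 was higher, with a median of -0.07. All 5 pigment cell markers were lower, against 50.9% of all genes with a usable symbol, with a median of -0.25, and all overlapped. The melanosome exchanger gene slc24a5 differed by -0.36 (SE 0.26), and the receptor gene csf1ra, of xanthophores and macrophages, by -0.34 (SE 0.18). They were -0.17 without replicate 2 at 0.3 ppb and -0.20 without replicate 2 at 3 ppb. The pool medians of the pigment list ran from 9.33 to 10.01 at 0.3 ppb and from 9.29 to 9.65 at 3 ppb, with the 2 highest of the 6 at 0.3 ppb. Their part in the other results was not tested.

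Cytokine and innate immunity genes were split, with 19 higher and 16 lower of 35 and a median of 0.05. Without overlap 3 were higher and 3 lower (17.1% together, against 9.03% of all genes with a usable symbol). Those higher include il12a and irf10, described above. Those lower include the complement gene c3a.6, at 8.41, 8.43 and 8.41 at 3 ppb and 8.69, 8.70 and 8.77 at 0.3 ppb. Its difference was -0.31 (SE 0.13, unadjusted p = 0.0474), with the 3 ppb pools almost equal. Both measured clock genes were lower. The period gene per3 stood at 9.80, 9.59 and 9.66 at 3 ppb and at 9.82, 10.22 and 10.10 at 0.3 ppb, a difference of -0.36 (SE 0.16), and per1b differed by -0.22 (SE 0.15). Sampling hour within a day is not given in the sources used here.

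Lists of lipid and chemical handling had medians between 0.02 and 0.11. Of 14 cholesterol genes 10 were higher, against 49.1% of all genes with a usable symbol, with a median of 0.11. They included the sterol desaturase gene sc5d at 0.32 (SE 0.19) and the sterol carrier gene stard4 at 0.25 (SE 0.14), while the regulator gene srebf2 differed by -0.31 (SE 0.18). Without replicate 3 at 0.3 ppb sc5d differed by 0.13, with the median of features stard4 differed by 0.06, and without replicate 2 at 3 ppb srebf2 differed by -0.19. Of 43 genes of xenobiotic metabolism, efflux and the aryl hydrocarbon receptor 24 were higher (55.8%, against 49.1%), and the median was 0.02. None had an unadjusted p under 0.05, against 2.73% of all genes with a usable symbol. The largest differences there were those of the glutathione transferase genes gstk4, at -0.42 (SE 0.23), and gstp1.1, at 0.30 (SE 0.28), and of the efflux pump gene abcg2d, at -0.39 (SE 0.21). Without replicate 2 at 3 ppb gstp1.1 differed by 0.07 and abcg2d by -0.20, and without replicate 1 at 0.3 ppb gstk4 differed by -0.27. Among 19 lipase and abhydrolase genes, the phospholipase gene pnpla7a was lower without overlap, with a difference of -0.40 (SE 0.17). Of 67 solute carrier genes 36 were higher, and the organic ion transporter gene slc22a13b had the largest difference, 0.49 (SE 0.18), without overlap.

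The housekeeping lists had medians near 0. The ubiquitin and proteasome list had 40 of 65 members lower, a median of -0.05, and 9 lower without overlap (13.8%, against 5.37% of all genes with a usable symbol). The adaptor gene kctd15b among them differed by -0.40 (SE 0.16). The list for RNA processing and translation had a median of -0.03, with the isoleucyl-tRNA synthetase gene iars1 at -0.52 (SE 0.16, unadjusted p = 0.0116). The levels of iars1 were 11.34, 11.10 and 10.92 at 3 ppb and 11.53, 11.74 and 11.64 at 0.3 ppb, with all 12 features lower. In membrane trafficking the tethering complex gene trappc12 differed by -0.48 (SE 0.20), and by -0.32 without replicate 3 at 3 ppb, and the list median was -0.01. Mitochondrial genes had a median of 0.04, with the ornithine carrier gene slc25a15a at 0.36 (SE 0.15). The heat shock and unfolded protein list had a median of -0.01, with the chaperone gene hspa4a at -0.24 (SE 0.14). The extracellular matrix list had a median of 0.01, and lama1 was its member of largest difference. Orphan and adhesion G-protein-coupled receptor genes had a median of 0.06. Among them the sphingosine phosphate receptor gene s1pr5b was higher without overlap, with a difference of 0.46 (SE 0.16), and the adhesion receptor gene adgrv1 was lower without overlap, with a difference of -0.41 (SE 0.18) that was -0.27 without replicate 2 at 3 ppb.

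In all, 20 of the 36 lists had a median above 0 and 16 below 0. The median lay within 0.1 of 0 for 23 of them. The lists held 835 different measured genes, and none of these passed an adjusted p of 0.05.

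**Figure D4:**
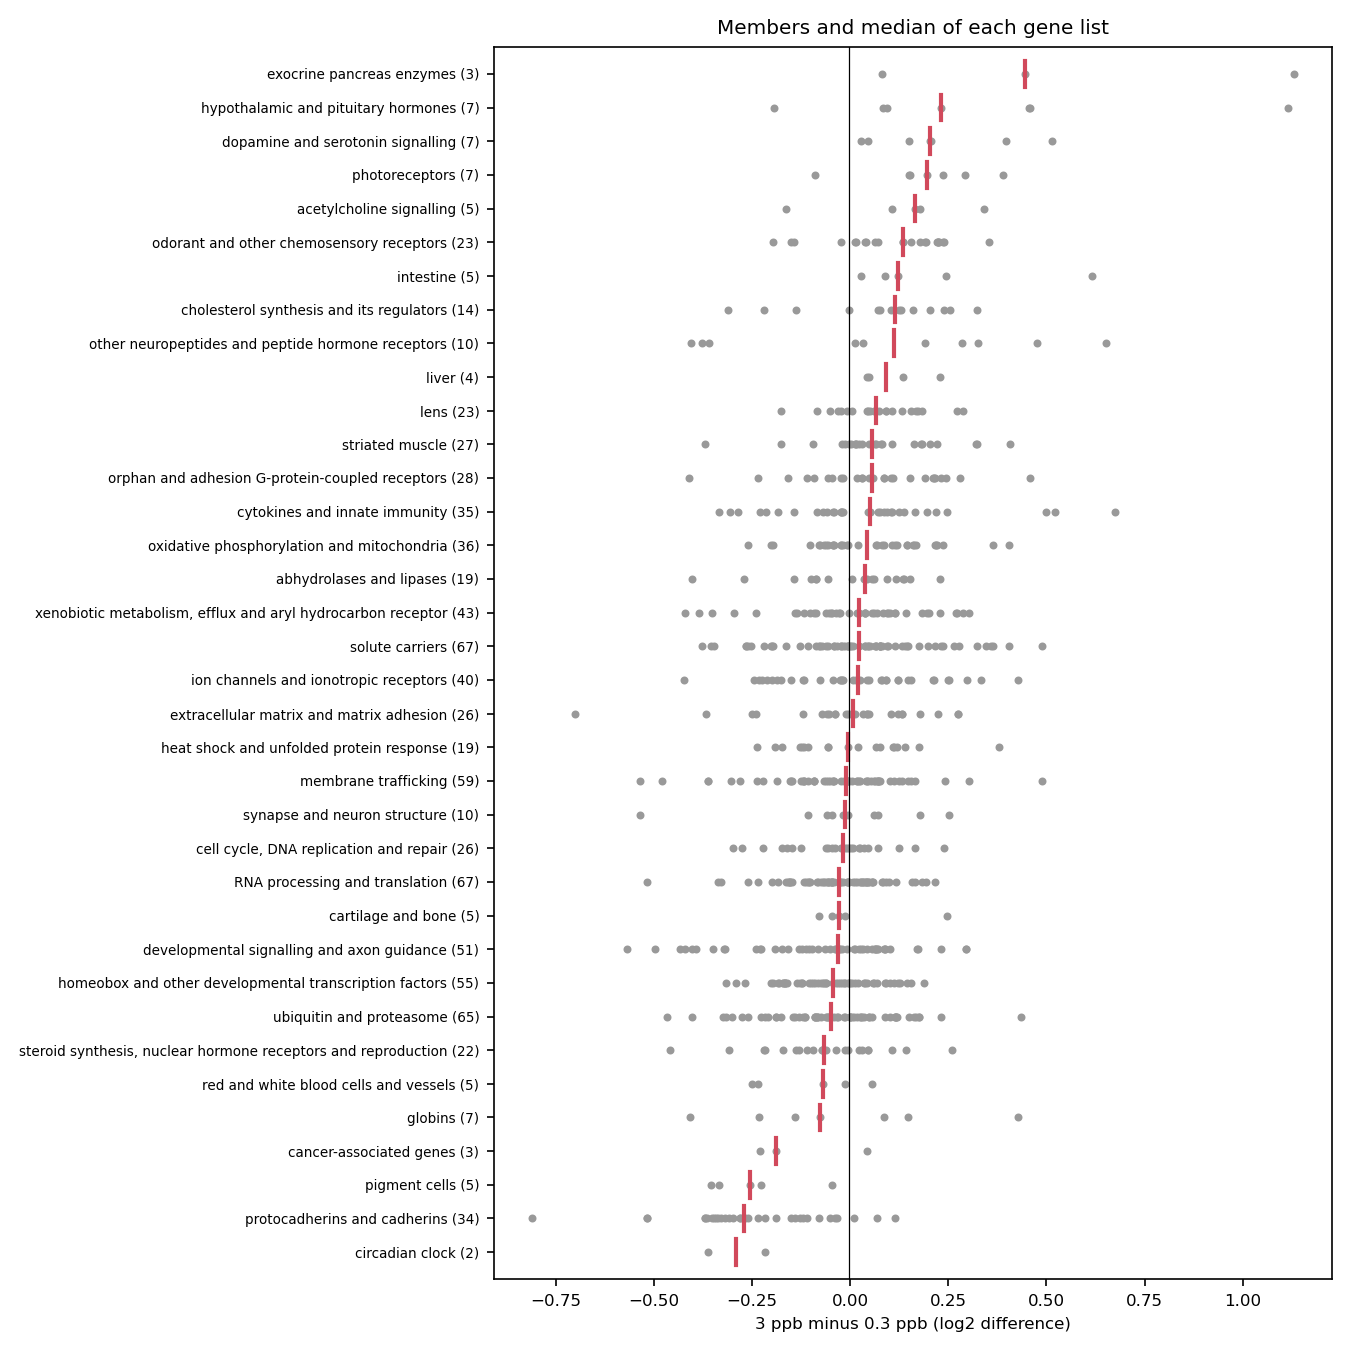
Differences (3 ppb minus 0.3 ppb, log2, horizontal axis) are plotted for every measured member of the 36 gene lists (grey points), with the median of each list as a red bar and the number of measured members in brackets. The hormone list has a median of 0.23, the protocadherin and cadherin list one of -0.27, and 23 of the 36 medians lie within 0.1 of 0.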

How the data were processed

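The deposited series matrix held 385000 features on 12 single-colour NimbleGen arrays as linear fluorescence intensity, which the authors processed with RMA, per the submitters' processing notes. The RMA version is not given in the sources used here, nor are background correction and scan batches. The plan had assumed log2 values, so the deposited intensities were first transformed to log2. The platform annotation and RefSeq names gave 1 symbol to 30725 features. Features were averaged per symbol, or per target ID where there was none, giving 37144 units with a median of 12 features, of which 2650 were named genes. No filter on dim units was used.

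The 6 pools were fitted with limma 3.58.1 (lmFit and eBayes, R 4.3.3) and p-values adjusted by Benjamini-Hochberg over all units, with a threshold of 0.05. Python 3.11.15, numpy 2.4.6 and pandas 2.3.3 read the files, and matplotlib 3.10.9 drew the figures. The number of arrays limits the precision. On simulated data for this comparison with 37144 units, 2% of 1.5-fold, 42% of 2-fold, 84% of 4-fold and 96% of 8-fold changes were recovered among 50 units each, with 4 false calls. Noise was drawn independently for each unit, and changes of every size shared the same adjustment. In the real arrays the first principal component held 54.2% of the variance, so these shares may not hold for the 6 pools.

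The genes named are up to 10 per direction by size past the threshold without overlap, filled by size from separate genes whose unadjusted p was under 0.05, all members of 7 lists, and up to 2 members per direction of the other lists. Only a selection of these is given in full, and some genes are not reported here. Symbols that repeat a clone or locus ID were not named. The members and the 36 lists were chosen with earlier results of these data known. The lists were matched by name patterns in part, which placed genes such as dscama among the cadherins and cbln9 in the ubiquitin list.

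The alternatives tried were all 12 arrays in 1 fit, the median of features, quantile normalization, cyclic loess, centring, a filter at the 25th percentile of signal, array weights, an intensity trend with a robust prior, a threshold of 0.10, a replicate block, the probe-position gradient as a covariate and leaving out each pool.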

Additional observations from a re-analysis of the deposited data

How the results depend on the processing

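No unit passed an adjusted p of 0.05 in any of the 17 alternatives, and array weights gave 47 units under 0.10. Those weights were uneven, at 7.04 for replicate 3 and 0.33 for replicate 1 at 3 ppb, and their estimation gave 1 warning. Both sets of 10 genes kept their direction in every fit that held them. With dim units left out, 6 of the 10 higher genes were tested. The genes were picked for pools that do not overlap, so leaving out a pool could not reverse their direction. With the median of features, 9 of the 10 higher and 7 of the 10 lower genes kept an unadjusted p under 0.05 in limma. Without replicate 2 at 3 ppb, 10 of the 10 higher and 6 of the 10 lower genes did. The count of units with an unadjusted p under 0.05, 1277 in the fit reported, was 2915 with the probe-position gradient as a covariate and 5883 with array weights, and the cause was not tested. It lay between 587, without replicate 3 at 3 ppb, and 2494, without replicate 1 at 3 ppb. With the replicate number as a block it was 2637 and no unit passed. Deviations of same-numbered pools correlated at 0.524, 0.651 and -0.073, so the rule for pairing, every pair over 0.1, was not met. The labels do not say whether a number marks a shared clutch or day. Over the 36 lists, 549 of 576 medians stayed within the spread between pools, and 19 lists changed sign in at least 1 setting.

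The medians that moved further, for causes not tested, were these. With the median of features, acetylcholine was 0.342, cytokines -0.043, blood and vessels -0.422 and clock -0.492. Without dim units, which tests fewer genes, neuropeptides were 0.237, odorant receptors 0.353 and blood -0.152. With array weights, cytokines were -0.061 and cholesterol 0.001. When a pool was left out, medians ran from 0.216 to 0.418 for hormones, 0.004 to 0.256 for neuropeptides, -0.066 to 0.141 for synapse, -0.157 to 0.116 for globins, 0.148 to 0.26 for photoreceptors, -0.054 to 0.075 for cytokines, -0.033 to 0.069 for xenobiotic genes, -0.079 to -0.01 for cell cycle, -0.149 to 0.029 for blood, 0.075 to 0.271 for intestine, -0.065 to -0.027 for ubiquitin, -0.073 to 0.04 for RNA processing, -0.068 to 0.018 for trafficking and -0.035 to 0.073 for lipases.

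Of 1740 values of 110 named genes in the alternatives, 33 changed sign. By over 1.5 times, or in sign, 58 of the 110 genes moved without at least 1 pool, and 64 did under another alternative. Array weights gave -0.017 for hcrt, -0.053 for hcrtr2, -0.038 for vipr1b, -0.044 for drd2l and -0.134 for tert. Cyclic loess gave -0.024 for hcrtr2 and -0.004 for vipr1b. The median of features gave -0.043 for hcrt, -0.306 for hcrtr2, -0.103 for vipr1b and -0.125 for amy2al2. The gradient gave -0.006 for htr5ab, -0.042 for hbae3 and -0.099 for acta1b. Leaving out a pool gave ranges of -0.091 to 0.231 for acta1b, -0.058 to 0.193 for amy2al2, -0.156 to 0.025 for crybb1, -0.065 to 0.108 for drd4a, -0.356 to 0.03 for ghrh, -0.05 to 0.225 for hbae3, -0.08 to 0.218 for hcrt, -0.124 to 0.11 for hcrtr2, -0.053 to 0.104 for htr5ab, -0.682 to 0.267 for npy7r, -0.484 to 0.068 for slc18a3b, -0.097 to 0.128 for tert, -0.295 to 0.294 for trh and -0.112 to 0.198 for vipr1b. The median of features gave -1.221 for celsr2 and 0.857 for adcyap1a, and array weights gave 0.407 for serpinb1l4 and 0.333 for irf10.

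Signal over background could not be judged, since the files hold no background call, so the values of low signals such as lhb, lhcgr, vtg4 and the odorant receptors carry this limit.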
